A study of Mus musculus with 29 samples.

Results

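A set of 9 genes used as markers of macrophages that live in the artery wall was followed across every library of a mouse aortic arch RNA-seq study: Lyve1, Folr2, Timd4, Mrc1, Cd163, Cbr2, F13a1, Gas6 and Pf4. They were chosen by name, as the rows that carry these 9 symbols among the 51456 symbols deposited for each library. All 9 were found in each of the 29 libraries, and all 9 passed the filter on low values that left 13510 genes to test.

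Resident macrophages of arteries sit mainly in the adventitia, the outer layer of the vessel, and part of them derive from precursors seeded before birth. Many carry LYVE1, a receptor for hyaluronan, together with the mannose receptor (Mrc1), the scavenger receptor CD163 and folate receptor beta (Folr2), and some carry TIM4 (Timd4), a receptor for phosphatidylserine on dying cells. They maintain themselves partly by division in place. In atherosclerosis and aneurysm, monocytes from the blood add a further population of macrophages, which take up lipid and become foam cells.

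The libraries were made from the aortic arch of male C57BL/6 mice on a chow diet, about 14 weeks old when a pump was implanted. The vehicle-treated model (9 libraries) came from ApoE KO mice with a pump that released AngII (angiotensin II) from a 15.27 mg/mL solution at 0.11 µL/hr, and weekly injections of vehicle for 4 weeks. The Scl-Ab-treated model (10 libraries) had the same genotype and AngII, with 10 mg/kg of an antibody against sclerostin (Scl-Ab), a secreted inhibitor of Wnt signalling, in place of vehicle. The WT group (10 libraries) received vehicle in the pump and by injection. Genotype and AngII differ together between WT and both model groups, so their effects cannot be told apart. Since the protocol names 9 WT mice and 10 libraries carry the WT label, n is a number of libraries.

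Whole tissue was sequenced. More or fewer cells of a type and more or less RNA per cell therefore cannot be told apart in any value below. Per the labels, adventitial fat was scraped off before RNA was taken, a step that reaches the layer where these macrophages lie. The values are FPKM-like, that is fragments scaled by gene length and by library, so levels of different genes can be set side by side. Depth was similar: across libraries, 31.8 to 43.6 fragments gave a 2 kb gene the value 1. Apoe was 264 ± 65.0 (SD, n = 10) in WT, 6.71 ± 1.70 (SD, n = 9) in the vehicle-treated model and 8.39 ± 2.79 (SD, n = 10) with Scl-Ab, which checks the genotype labels.

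The DNA around the start sites of these genes was searched for 2 short words. GAGGAA is a core read by PU.1 (Spi1), the factor that defines macrophages. TGCTGA is the core of the Maf recognition element, read by Maf. Both strands were searched, so a match also reads TTCCTC or TCAGCA. The promoters are those of RefSeq on GRCm38.p6, from 250 bases before the start to 50 after it, and 8 of the 9 genes were in that table (all but Lyve1), with 10 promoters. GAGGAA was found in 5 of the 10 (Mrc1, Pf4, Cbr2 and both of F13a1) and in 28.3% of all 32851 promoters. TGCTGA was found in 4 of the 10 (Timd4, Cbr2 and both of Folr2) and in 19.5% of all. Cd163 and Gas6 held neither word. The stretches below lie before the start and outside annotated exons, 5′ to 3′ on the gene's strand, with the matches in capitals. Some matches, those of Cbr2 among them, lay outside such stretches and are not printed, nor is the other Folr2 stretch. A match is a run of letters and not a shown binding site, and shared regulation was not tested.
The Mrc1 stretch, chr2:14229164-14229391 on the plus strand, holds 3 matches to the PU.1 core.
Mrc1: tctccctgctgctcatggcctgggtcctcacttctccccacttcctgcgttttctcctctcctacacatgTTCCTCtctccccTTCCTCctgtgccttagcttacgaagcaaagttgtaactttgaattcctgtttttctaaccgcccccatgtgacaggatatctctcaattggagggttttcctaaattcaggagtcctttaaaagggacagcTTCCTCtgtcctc
The Pf4 stretch, chr5:90772185-90772434 on the plus strand, holds 1 such match next to the start.
Pf4: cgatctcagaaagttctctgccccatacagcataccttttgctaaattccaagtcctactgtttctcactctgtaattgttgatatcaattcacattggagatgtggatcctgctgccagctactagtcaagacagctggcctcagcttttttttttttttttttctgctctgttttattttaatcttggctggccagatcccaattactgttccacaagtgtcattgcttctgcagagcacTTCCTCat
F13a1, at chr13:37050245-37050494 on the minus strand, also holds 1.
F13a1: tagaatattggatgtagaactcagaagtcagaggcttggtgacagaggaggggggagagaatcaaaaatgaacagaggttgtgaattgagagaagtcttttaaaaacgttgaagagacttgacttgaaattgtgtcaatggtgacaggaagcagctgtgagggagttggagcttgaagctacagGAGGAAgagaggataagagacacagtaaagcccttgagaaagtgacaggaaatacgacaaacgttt
Folr2, at chr7:101845332-101845581 on the minus strand, holds 1 Maf core.
Folr2: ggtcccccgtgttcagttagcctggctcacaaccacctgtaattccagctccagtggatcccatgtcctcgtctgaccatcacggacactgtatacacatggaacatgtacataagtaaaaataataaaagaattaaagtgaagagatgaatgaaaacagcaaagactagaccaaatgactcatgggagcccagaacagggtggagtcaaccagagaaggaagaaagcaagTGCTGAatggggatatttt
Timd4, at chr11:46810549-46810798 on the plus strand, holds 2 Maf cores.
Timd4: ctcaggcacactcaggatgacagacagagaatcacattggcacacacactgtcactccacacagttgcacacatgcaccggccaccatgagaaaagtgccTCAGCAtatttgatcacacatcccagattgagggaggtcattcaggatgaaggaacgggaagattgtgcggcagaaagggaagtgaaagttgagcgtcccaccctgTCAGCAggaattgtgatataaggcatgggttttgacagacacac
The factors themselves were measured in the same libraries. Spi1 was 3.35-fold higher in the vehicle-treated model than in WT (limma adjusted p = 2.27e-09) and Maf 1.19-fold (limma adjusted p = 0.0404). Neither differed between Scl-Ab and vehicle past the threshold.

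In the diseased arch, 4 of the 9 markers were higher than in WT (Mrc1, F13a1, Folr2 and Lyve1, 1.61-fold to 2.11-fold), 1 was lower (Cbr2, 0.512-fold) and 4 were not called (Cd163, Pf4, Gas6 and Timd4). A call means a Benjamini-Hochberg adjusted p under 0.05 in limma over all 13510 genes, on log2(value + 1). Limma fold changes are on that scale throughout, which understates those of low genes such as Timd4, Havcr2, Clec1b and Ccr2. Among all tested genes, 22.7% were called higher and 31.0% lower in the vehicle-treated model than in WT. The median log2 fold change was 0.44 over the 9 markers and -0.04 over all genes tested. Over 16 genes carried by macrophages in general it was 2.09, and 16 of 16 were higher. Each of the 9 fold changes was below that of Csf1r, the receptor for the macrophage growth factor CSF1, at 2.42-fold, and of Adgre1, which encodes F4/80, at 4.03-fold. The difference between the markers and those genes was not tested.

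**Figure D1:**
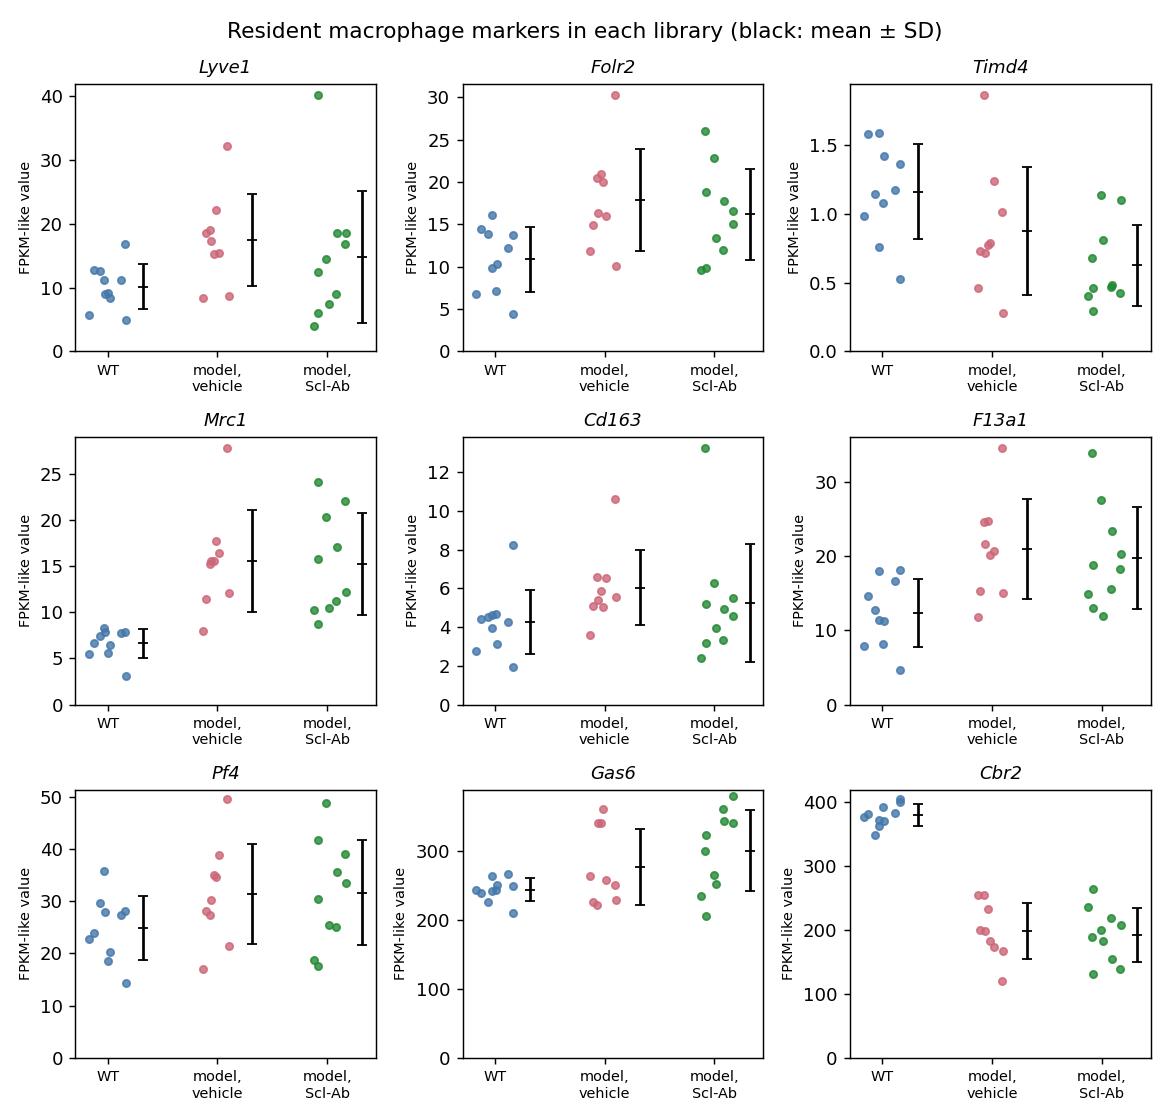
Values of the 9 markers in each library (points; FPKM-like values, linear axes from 0) for WT, the model with vehicle and the model with Scl-Ab, with the mean and SD in black. Mrc1 lies above all WT libraries in 8 of 9 vehicle and 10 of 10 Scl-Ab libraries, and Cbr2 lies below all WT libraries in every model library.

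In WT the order of the medians was Cbr2, Gas6, Pf4, F13a1, Folr2, Lyve1, Mrc1, Cd163 and Timd4. There Cbr2 and Gas6 had medians above 200, Timd4 a median near 1, and the other 6 lay between. In WT the ranges of Cbr2 and Gas6 did not overlap, nor did those of Gas6 and Pf4 or of Cd163 and Timd4, while each pair of neighbours from Pf4 down to Cd163 overlapped. In both model groups Gas6 stood above Cbr2 by median, with overlapping ranges, and Cbr2 stood clear of Pf4. Lyve1, Folr2 and Mrc1 changed places there, with ranges that overlapped.

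Mrc1 encodes the mannose receptor (CD206), an endocytic receptor for sugars and collagen fragments (GRCm38 chromosome 2, 14229392 to 14332057). Its values in WT ran from 3.12 to 8.30 with a median of 7.03. In the vehicle-treated model they ran from 7.93 to 27.7 (median 15.6), and with Scl-Ab from 8.71 to 24.1 (median 14.0). Only the lowest vehicle library fell within the WT range, and no Scl-Ab library did. Mrc1 was 2.11-fold higher in the vehicle-treated model than in WT (log2 1.08, SE 0.19, limma adjusted p = 2.99e-05). With Scl-Ab it was 2.06-fold higher than in the same WT libraries (limma adjusted p = 3.36e-05). Among its relatives, Mrc2, a collagen receptor, was 1.19-fold higher in the vehicle-treated model (limma adjusted p = 0.00894), and Pla2r1, a receptor for secreted phospholipases, was 1.63-fold higher (limma adjusted p = 2.18e-09). Ly75, a receptor of dendritic cells, was not called (0.983-fold).

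F13a1 encodes the catalytic subunit of clotting factor XIII, which macrophages also make (chromosome 13, 36867178 to 37050244). WT values ran from 4.71 to 18.2 (median 12.1), vehicle values from 11.9 to 34.6 (median 20.7) and Scl-Ab values from 11.99 to 33.9 (median 18.5). Ranges overlapped, with 6 of 9 vehicle and 6 of 10 Scl-Ab libraries above all of WT. The difference from WT was 1.68-fold with vehicle (log2 0.75, SE 0.21, limma adjusted p = 0.00446) and 1.58-fold with Scl-Ab (limma adjusted p = 0.00962). F13b, the carrier subunit made by the liver, was listed at 0 in all libraries, and Tgm2, a relative of F13a1 that also crosslinks proteins, was not called (0.911-fold).

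Folr2 encodes folate receptor beta (chromosome 7, 101839988 to 101857194). Folr2 values in WT ran from 4.47 to 16.1 (median 11.3), vehicle values from 10.1 to 30.3 (median 16.3) and Scl-Ab values from 9.56 to 26.03 (median 15.8). Above all of WT lay 5 of 9 vehicle libraries and 5 of 10 Scl-Ab libraries. Folr2 was 1.61-fold higher with vehicle (log2 0.69, SE 0.21, limma adjusted p = 0.00744) and 1.46-fold higher with Scl-Ab (limma adjusted p = 0.0267). The latter call held in 20 of 31 alternatives, with log2 from -0.10 to 0.63. Leaving out any 1 of 5 libraries ended it (WT 20, 21 and 29, Scl-Ab 10 and 13; limma adjusted p up to 0.0643). Slc46a1, the proton-coupled folate transporter, was 1.17-fold higher in the vehicle-treated model (limma adjusted p = 0.0125), and Slc19a1, the reduced folate carrier, was not called (1.12-fold).

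Lyve1 encodes a hyaluronan receptor found on resident macrophages and on lymphatic vessels (chromosome 7, 110850607 to 110863239). WT values ran from 4.88 to 16.9 (median 10.2) and vehicle values from 8.35 to 32.2 (median 17.3). With Scl-Ab they ran from 3.96 to 40.1 (median 13.4), the widest spread of any marker relative to its mean. Lyve1 was 1.62-fold higher in the vehicle-treated model (log2 0.70, SE 0.29, limma adjusted p = 0.0467), with 5 of 9 libraries above all of WT. This call held in 9 of 30 alternatives, and leaving out any 1 of 14 libraries ended it, vehicle 1 with the highest value among them (limma adjusted p = 0.103). With Scl-Ab it was not called against WT (1.25-fold, limma adjusted p = 0.358). Cd44, the other main hyaluronan receptor, was 2.39-fold higher with vehicle than in WT (limma adjusted p = 1.1e-09), and all 9 libraries lay above WT. Has1, which makes hyaluronan, missed the filter, with a mean of 0.199 in WT, 1.07 in the vehicle-treated model and 1.04 with Scl-Ab.

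Markers of lymphatic endothelium moved with Lyve1. Of 7 lymphatic genes, 5 were tested, and 5 of 5 were higher in the vehicle-treated model than in WT, among them Ccl21a, a chemokine of lymphatic vessels, at 4.89-fold (limma adjusted p = 0.000249) and Pdpn, also made by fibroblasts, at 2.27-fold (limma adjusted p = 5.95e-05). Their summed values ran from 5.22 to 23.98 in WT, from 22.5 to 163 with vehicle and from 34.7 to 201 with Scl-Ab. Prox1, the factor that defines lymphatic cells, was under 1 in every library. Within groups, Lyve1 followed the lymphatic index (the mean log2(value + 1) of the 7 genes) in the vehicle-treated model (r = 0.852, rho = 0.80, permutation p = 0.00357, n = 9; adjusted over 108 relations 0.0482; r = 0.738 without the 2 libraries farthest out). With Scl-Ab it did so as well (r = 0.82, rho = 0.77, permutation p = 0.0029, n = 10; adjusted 0.0447; r = 0.69 without 2). The rank correlations missed the threshold after adjustment (both adjusted p = 0.149, permutation test). The lymphatic index was not among the indices first planned for these relations. Other markers had like values: with Scl-Ab, r was 0.809 for Pf4, 0.806 for Mrc1 and 0.769 for Folr2, and with vehicle 0.779 for Pf4 and 0.764 for Mrc1, none past the threshold after adjustment (adjusted p from 0.0607 to 0.0807, permutation test). In WT, r for Lyve1 was 0.347 (rho = 0.236, permutation p = 0.323, n = 10; adjusted 0.485). With a like index of 8 adipocyte genes, r for Lyve1 was 0.559 with Scl-Ab (0.843 without the 2 libraries farthest out). With vehicle it was 0.346 (-0.315 without 2). Neither passed after adjustment (adjusted p = 0.268 and 0.509, permutation test). With the lymphatic index in the limma fit, an alternative chosen after the data were seen, Lyve1 was at log2 -0.26 in the vehicle-treated model (limma adjusted p = 0.471) and of the 9 markers Mrc1 and Cbr2 were called. The part of lymphatic cells in the Lyve1 values was not tested further.

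**Figure D2:**
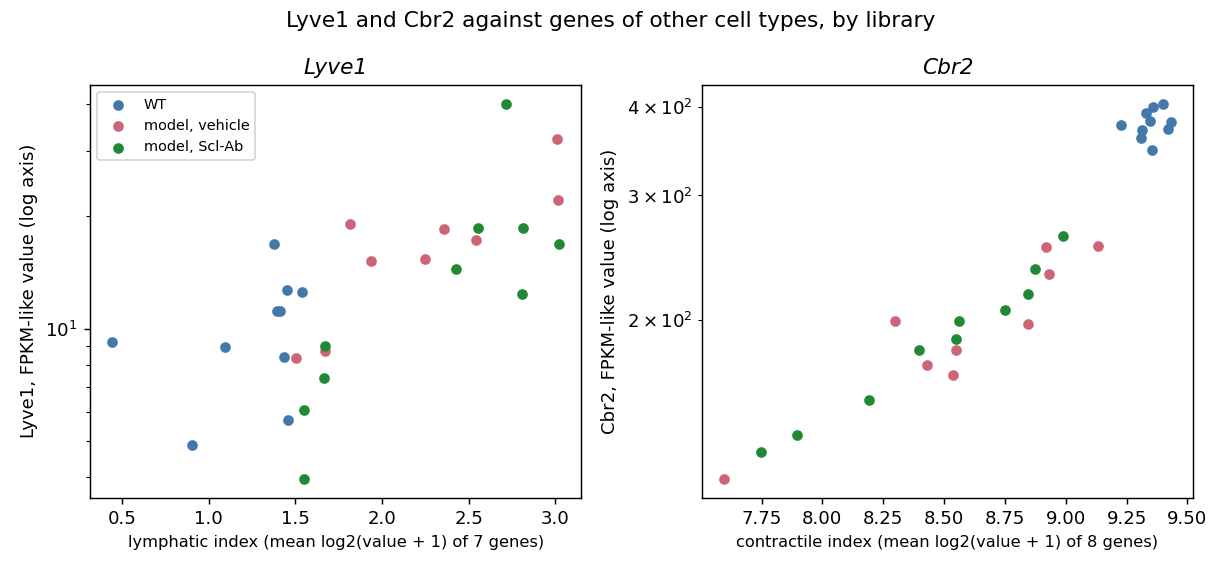
Lyve1 against the lymphatic index (left) and Cbr2 against the contractile index (right) in each of the 29 libraries. The vertical axes are FPKM-like values on a log scale, the horizontal axes are mean log2(value + 1), and colours give the groups. With Scl-Ab, Cbr2 and the contractile index rank the 10 libraries in the same order.

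Cd163 encodes the scavenger receptor for complexes of haemoglobin and haptoglobin (chromosome 6, 124304656 to 124330527). WT values ran from 1.94 to 8.21 (median 4.32), vehicle values from 3.59 to 10.6 (median 5.54) and Scl-Ab values from 2.39 to 13.3 (median 4.74). The groups overlapped almost wholly, with 1 library of each model group above all of WT. Cd163 was 1.36-fold higher in the vehicle-treated model and missed the threshold (log2 0.44, SE 0.20, limma adjusted p = 0.071), which it passed in 5 of 30 alternatives, the rank test among them (Wilcoxon adjusted p = 0.0208). It also passed without WT 23 (limma adjusted p = 0.0245) or vehicle 7 (limma adjusted p = 0.0393). The genes that act with CD163 on haem and iron were higher in the vehicle-treated model: haptoglobin (Hp) 3.92-fold (limma adjusted p = 0.00121), haem oxygenase (Hmox1) 2.87-fold (limma adjusted p = 1.77e-06) and the iron exporter ferroportin (Slc40a1) 2.54-fold (limma adjusted p = 0.000726).

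Timd4 encodes TIM4, which binds phosphatidylserine on dying cells (chromosome 11, 46810800 to 46844332). WT values ran from 0.529 to 1.59 (median 1.16), vehicle values from 0.277 to 1.87 (median 0.771) and Scl-Ab values from 0.292 to 1.14 (median 0.476). These levels stand for about 11.97 to 71.7 fragments a library, so counting error is part of the spread. No group lay clear of another, but 6 of 10 Scl-Ab libraries were below all of WT against 2 of 9 with vehicle. Timd4 was 0.750-fold with Scl-Ab relative to WT (log2 -0.41, SE 0.12, limma adjusted p = 0.00611) and 0.855-fold with vehicle, which was not called (limma adjusted p = 0.132; 0.029 without vehicle 5). Scl-Ab and vehicle were not shown to differ (0.878-fold, 95% interval 0.734 to 1.05, both on value + 1). The mean values were 0.626 with Scl-Ab and 0.873 with vehicle, and the interval does not bound the ratio of such low values themselves. Timd4 reached a value of 1 in 7 WT, 3 vehicle and 2 Scl-Ab libraries, so it passed the filter largely through WT. With no filter the Scl-Ab call held (limma adjusted p = 0.0123). The paralogue Havcr2, which encodes the inhibitory receptor TIM3, was 0.152 ± 0.0641 (SD, n = 10) in WT and 3.18 ± 0.939 (SD, n = 9) with vehicle. On value + 1 it was 3.55-fold higher (limma adjusted p = 5.29e-13), where the means themselves differed 20.9-fold.

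Pf4 encodes platelet factor 4, a chemokine of platelet granules that tissue macrophages also transcribe (chromosome 5, 90772435 to 90773383). In WT, Pf4 ran from 14.3 to 35.8 (median 25.6), vehicle values from 17.1 to 49.6 (median 30.3) and Scl-Ab values from 17.6 to 48.8 (median 32.0). The groups overlapped, and neither model group was called against WT (1.24-fold in both, limma adjusted p = 0.172 and 0.161). Of 11 other platelet and megakaryocyte genes, 7 were under 1 in every vehicle library and in every Scl-Ab library and 6 in every WT library, and the summed values of the 11 had a median of 5.57 in WT, of 9.06 in the vehicle-treated model and of 6.68 with Scl-Ab, each below the Pf4 median of that group. Clec1b, a receptor of platelets and of some macrophages, was 3.68-fold higher with vehicle than in WT (limma adjusted p = 1.86e-07).

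Gas6 encodes a secreted bridge between phosphatidylserine and the receptors TYRO3, AXL and MERTK (chromosome 8, 13465374 to 13494490). In WT, Gas6 ran from 211 to 267 (median 244), vehicle values from 222 to 361 (median 258) and Scl-Ab values from 206 to 380 (median 312). Above all of WT lay 3 of 9 vehicle and 6 of 10 Scl-Ab libraries. Gas6 was not called with vehicle (1.12-fold, limma adjusted p = 0.205) and was 1.21-fold higher with Scl-Ab than in WT (log2 0.28, SE 0.10, limma adjusted p = 0.0268). That call held in 20 of 31 alternatives, with log2 from 0.03 to 0.37. Leaving out any 1 of 5 libraries ended it (WT 21, Scl-Ab 11, 14, 15 and 16; limma adjusted p up to 0.0586). Of its receptors, Axl was 0.818-fold (limma adjusted p = 0.00034) and Tyro3 0.639-fold (limma adjusted p = 4.8e-06) in the vehicle-treated model relative to WT, with all 9 libraries below WT for Tyro3. Mertk, the receptor typical of resident macrophages, was 32.9 ± 9.68 (SD, n = 10) in WT and 34.2 ± 7.99 (SD, n = 9) with vehicle, and was not called (limma adjusted p = 0.748). The related ligand Pros1 was 1.32-fold higher (limma adjusted p = 8.55e-05), and Mfge8, another bridge to dying cells, was not called (1.08-fold).

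Cbr2 encodes a carbonyl reductase best known from lung and used as a marker of some resident macrophages (chromosome 11, 120729489 to 120732114). In WT, Cbr2 ran from 348 to 404 (median 379), vehicle values from 120 to 254 (median 198) and Scl-Ab values from 131 to 263 (median 194). All 9 vehicle and all 10 Scl-Ab libraries lay below all of WT. Cbr2 was 0.512-fold with vehicle (log2 -0.97, SE 0.12, limma adjusted p = 1.82e-07) and 0.496-fold with Scl-Ab (limma adjusted p = 5.25e-08). The other carbonyl reductases moved little: Cbr3 was 0.892-fold with vehicle (limma adjusted p = 0.04), and Cbr1 was not called (0.943-fold).

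Measures of Cbr2, and the level of Gas6, went against the label of a macrophage marker in this tissue. The r of Gas6 with general macrophage genes, given below, was positive in all 3 groups. Which cells carried the RNA of Cbr2 and Gas6 was not tested. In WT the level of Gas6 was 23.6 times that of Csf1r in the same library by the median. That of Cbr2 was 35.4 times that of Csf1r, where Lyve1 was 0.907 times and Mrc1 0.608 times. Over the 29 libraries, after the group means were removed, the genes closest to Cbr2 were Pbxip1, Tagln, Csrp1, Mmp17 and Myh11 (r = 0.943 to 0.961), of which Tagln and Myh11 encode contractile proteins of smooth muscle. In the Scl-Ab libraries Cbr2 and an index of 8 contractile genes had r = 0.986 and rho = 1.0 (permutation p = 1e-05, the smallest that 100000 resamples allow, n = 10; adjusted 0.00108; r = 0.973 without 2 libraries). With vehicle r was 0.918 (rho = 0.80, permutation p = 0.00158, n = 9; adjusted 0.0284, and 0.149 for rho; r = 0.712 without 2). In WT, where that index hardly varied (9.35 ± 0.06, SD, n = 10), r was 0.201 (rho = 0.333, permutation p = 0.578, n = 10; adjusted 0.688). With the adipocyte index, r of Cbr2 was -0.827 with vehicle, -0.801 with Scl-Ab and -0.516 in WT. None of these passed after adjustment (adjusted p = 0.0505, 0.0612 and 0.307, permutation test). The contractile genes were lower in the model too (7 of 8 called with vehicle, Myh11 at 0.415-fold, limma adjusted p = 3.69e-08). With the contractile index in the limma fit, Cbr2 remained called against WT, at log2 -0.41 with vehicle (limma adjusted p = 7.79e-06) and -0.39 with Scl-Ab (limma adjusted p = 4.7e-05).

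The other 8 markers did not share one pattern either. Over the 29 libraries, as deviations from the group means, Lyve1, Folr2, Mrc1, Cd163, F13a1 and Pf4 varied together, with r from 0.731 to 0.924 for the 15 pairs. The closest pairs were Folr2 with F13a1 (r = 0.924), Mrc1 with Pf4 (r = 0.914) and Lyve1 with Cd163 (r = 0.873). Timd4 was nearer to Folr2 (r = 0.64) and F13a1 (r = 0.605) than to Mrc1 (r = 0.441), on its few fragments. Gas6 reached r = 0.434 at most with another marker, and Cbr2 was negative with 7 of 8 markers, down to -0.613 with Mrc1. These values describe libraries that share a source and a scale, and carry no test.

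**Figure D3:**
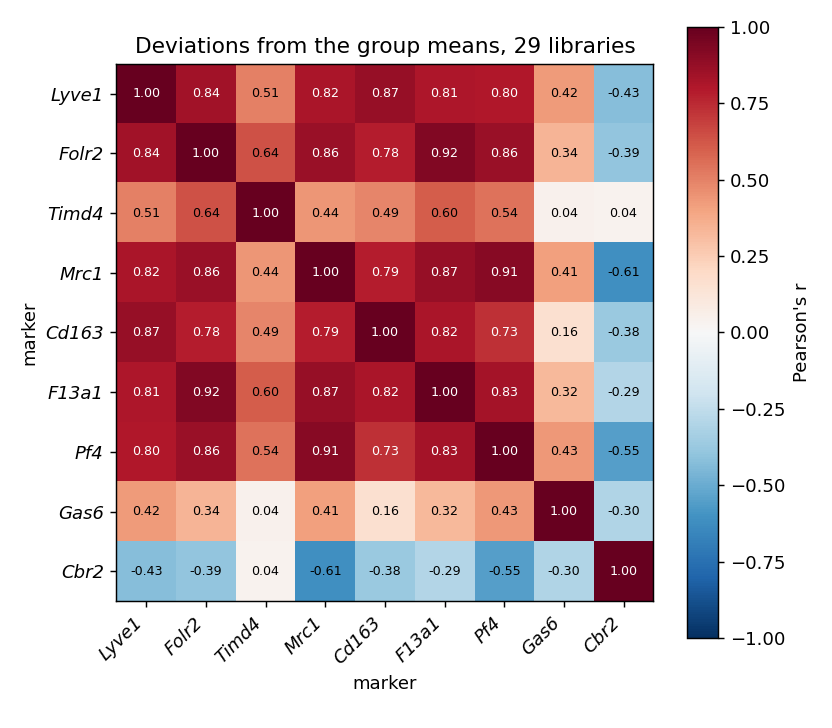
Pearson's r between each pair of the 9 markers over 29 libraries, on log2(value + 1) after the 3 group means were removed. A block of 6 markers has r of at least 0.731, Timd4 is looser (0.441 to 0.64 with that block), and Gas6 and Cbr2 stand outside it.

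Among all tested genes, those nearest to the block were also looked up. Alox5, the enzyme that starts leukotriene synthesis, was close to Folr2 (r = 0.899) and F13a1 (r = 0.895), and Fcna, a lectin of resident macrophages, was close to Folr2 (r = 0.886) and, less so, to Timd4 (r = 0.688). Mgl2, a lectin of macrophages and dendritic cells, and Gpc3, a cell surface proteoglycan, were nearest to Lyve1 after Cd163 (r = 0.845 and 0.844). Near Mrc1 stood Lgi2 (r = 0.909) and Col14a1 (r = 0.889), the latter a fibroblast collagen. For Cd163 they were Ccl9, a chemokine (r = 0.827), and Slc7a8, an amino acid transporter (r = 0.819). For Gas6 the nearest were Abca8a (r = 0.817), Tnfsf13b, the B cell factor BAFF (r = 0.764), and Mdk, the growth factor midkine (r = 0.757), with no marker among the first 5. For Timd4 they were BC048403, Gria4 and Shisa3 (r = 0.736 to 0.752), none of them a marker.

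Within WT, 5 of the block followed the mean log2(value + 1) of 16 general macrophage genes. For Mrc1 r was 0.948 (rho = 0.952, permutation p = 2e-05, n = 10; adjusted 0.00108; r = 0.887 without the 2 libraries farthest out), and F13a1 was alike (r = 0.947, rho = 0.952, permutation p = 3e-05, n = 10; adjusted 0.00108; r = 0.875 without 2). For Pf4, r was 0.913 (rho = 0.83, permutation p = 0.00025, n = 10; adjusted 0.00648; r = 0.914 without 2) and for Folr2 it was 0.895 (rho = 0.733, permutation p = 0.0003, n = 10; adjusted 0.00648; r = 0.821 without 2). For Lyve1 it was 0.816 (rho = 0.721, permutation p = 0.00405, n = 10; adjusted 0.0486) and fell to 0.498 without the 2 libraries farthest out, on which that relation rests. By rank, the relation passed after adjustment for Mrc1 and F13a1 (both adjusted p = 0.00396, permutation test) and missed for Pf4, Folr2 and Lyve1 (adjusted p = 0.125, 0.155 and 0.168). Within the vehicle-treated model the same r was below 0 for these 5 markers, for Cd163 and for Timd4 (-0.625 to -0.286), and none of these passed after adjustment. With Scl-Ab it was above 0 for 6 of these 7, from 0.147 (Cd163) to 0.62 (Mrc1), and -0.068 for Timd4, and none passed after adjustment either. Whether the relation differed between the groups was not tested.

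Each marker was also set against Csf1r in the same library. By median, Lyve1 was 0.907 of Csf1r in WT, 0.649 in the vehicle-treated model and 0.371 with Scl-Ab. For Folr2 these were 0.941, 0.653 and 0.524, for F13a1 1.14, 0.729 and 0.667, and for Cd163 0.368, 0.243 and 0.149. Mrc1 differed least from its WT ratio by median, at 0.608, 0.544 and 0.495. These ranges overlapped between WT and both model groups. The picture depended on the reference. As a percentage of the summed values of the 16 general macrophage genes, Mrc1 ran from 1.72 to 2.47% in WT, from 0.196 to 1.71% with vehicle and from 0.474 to 1.70% with Scl-Ab. On that scale 8 of the 9 markers had no overlap between WT and either model group, and Lyve1 overlapped with Scl-Ab (2.25 to 3.86% in WT against 0.288 to 2.84%). The sum itself did not overlap with WT: it ran from 144 to 460 in WT, from 1357 to 4054 with vehicle and from 1081 to 2568 with Scl-Ab. A gene whose own value did not change could therefore separate on that scale too. The share of all genes that would do so was not computed, so the count of 8 is not a result about these markers.

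The Timd4 ratio ran from 0.0705 to 0.142 in WT, from 0.0125 to 0.0892 with vehicle and from 0.00945 to 0.0450 with Scl-Ab, so that all Scl-Ab libraries lay below WT, while 1 vehicle library overlapped. The Pf4 ratio ran from 1.82 to 3.39 in WT, from 0.700 to 1.65 with vehicle and from 0.813 to 1.37 with Scl-Ab, with no overlap between WT and either model group. The Gas6 ratio ran from 16.2 to 40.0 in WT, from 8.36 to 10.9 with vehicle and from 6.72 to 13.9 with Scl-Ab, and that of Cbr2 from 24.9 to 76.6, from 3.99 to 12.2 and from 3.08 to 14.6, again with no overlap with WT. These ratios fall wherever Csf1r rises more than the marker, and Csf1r itself averaged 10.7 ± 3.11 (SD, n = 10) in WT, 26.7 ± 5.23 (SD, n = 9) in the vehicle-treated model and 30.0 ± 9.66 (SD, n = 10) in the Scl-Ab-treated model. They carry no test of their own, and 31.0% of all tested genes were called lower with vehicle before any division.

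**Figure D4:**
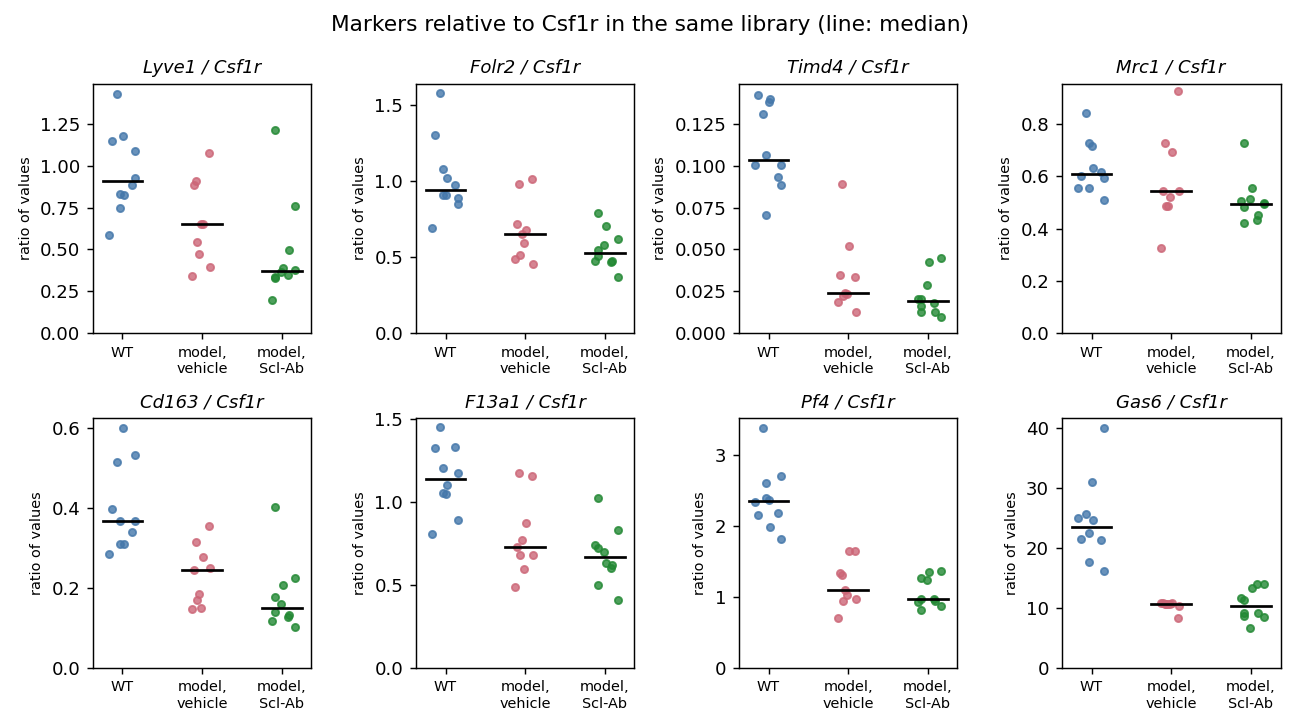
Ratio of 8 markers to Csf1r in the same library (linear axes from 0, no unit), with the median of each group as a line. Pf4 ratios of WT lie above those of both model groups, while the Mrc1 ratios overlap between the groups.

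Other genes of the resident macrophage programme, from a list of 18, were mixed: 8 were higher, 1 was lower and 7 were not called among the 16 tested in the vehicle-treated model against WT, with a median of 1.38-fold. Higher were Wfdc17 at 6.36-fold (limma adjusted p = 1.61e-13), Igf1, a growth factor, at 4.03-fold (limma adjusted p = 4.35e-10), and Stab1, a scavenger receptor, at 1.87-fold (limma adjusted p = 9.56e-06). Vsig4, a complement receptor, was 1.63-fold higher (limma adjusted p = 0.00768), and Fcgrt, which recycles antibodies, was the 1 lower (0.837-fold, limma adjusted p = 0.0248). The 7 not called were Mgl2 (1.44-fold, limma adjusted p = 0.108), Ltc4s (1.33-fold), Fcna (1.035-fold), Cd209d (1.01-fold), Cd209f (0.980-fold), Ccl24 (0.834-fold) and Cd209g (0.820-fold). Genes of recruited monocytes were higher in 9 and lower in 1 of 11 tested (Nr4a1, a nuclear receptor, at 0.277-fold, limma adjusted p = 4.31e-05), with Ccr2, the receptor that draws monocytes from blood, at 4.75-fold (limma adjusted p = 2.27e-09). Foam cell genes were higher in 12 of 14, with a median of 6.52-fold.

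Growth factors and regulators of macrophages were higher in 10 and lower in 1 of 13 tested. Csf1 was 1.32-fold higher (limma adjusted p = 0.00393) and Il34, the other ligand of CSF1R, 1.44-fold (limma adjusted p = 0.0129). Ccl2, the ligand of CCR2, was 5.15-fold higher (limma adjusted p = 1.13e-08). The lower 1 was Id3, a transcriptional inhibitor, at 0.652-fold (limma adjusted p = 0.000459). Of the partners and relatives of the 9 markers described above, 9 were higher and 3 lower of 18 tested out of 25 listed.

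No marker differed past the threshold between Scl-Ab and vehicle. Called were 0 of 9 by limma, where 2.64% of all tested genes were called higher and 4.80% lower, and 0 of 9 by the Wilcoxon test. An unadjusted limma p under 0.05 was found for 0 of 9, beside 3378 of all 13510 tested genes. On value + 1, the fold changes ran from 0.771 (Lyve1) to 1.08 (Gas6), with limma adjusted p from 0.377 to 0.997. Their 95% intervals bound what could have been missed on that scale, which for Timd4 is not the ratio of the values themselves. For Pf4 the interval ran from 0.767-fold to 1.31-fold, for Mrc1 from 0.744 to 1.28, for Cbr2 from 0.816 to 1.15 and for Gas6 from 0.931 to 1.26. For Lyve1 it was the widest, from 0.508 to 1.17, and for Cd163 it ran from 0.633 to 1.13.

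Around the markers a few genes did differ between Scl-Ab and vehicle. Of 14 foam cell genes 1 was called, Atp6v0d2, a subunit of the vacuolar proton pump, at 0.452-fold (limma adjusted p = 0.0251). In that list 8 of 14 had an unadjusted limma p under 0.05, beside 3378 of all 13510 tested genes. The median of the list was 0.781-fold, beside 0.994-fold over all tested genes. Havcr2 was 0.681-fold (limma adjusted p = 0.00686), Mrc2 was 1.24-fold higher with 7 of 10 libraries above all of vehicle (limma adjusted p = 0.0164), and Fcgrt was 1.29-fold higher (limma adjusted p = 0.02). Clec1b was 0.499-fold (limma adjusted p = 0.0131), and among 8 endothelial genes Pecam1 was 0.629-fold (limma adjusted p = 0.0127) and Vwf 0.603-fold (limma adjusted p = 0.0273). None of the 16 general macrophage genes was called (Ctss, a cathepsin, came closest at 0.666-fold, limma adjusted p = 0.0945). Of them, 2 had an unadjusted limma p under 0.05, a smaller share than over all tested genes. The 7 circadian clock genes checked all differed between these groups (4 higher and 3 lower with Scl-Ab, Dbp at 4.63-fold, limma adjusted p = 0.00953). With a clock index in the fit, 0 of 9 markers and 3 genes in all were called.

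**Figure D5:**
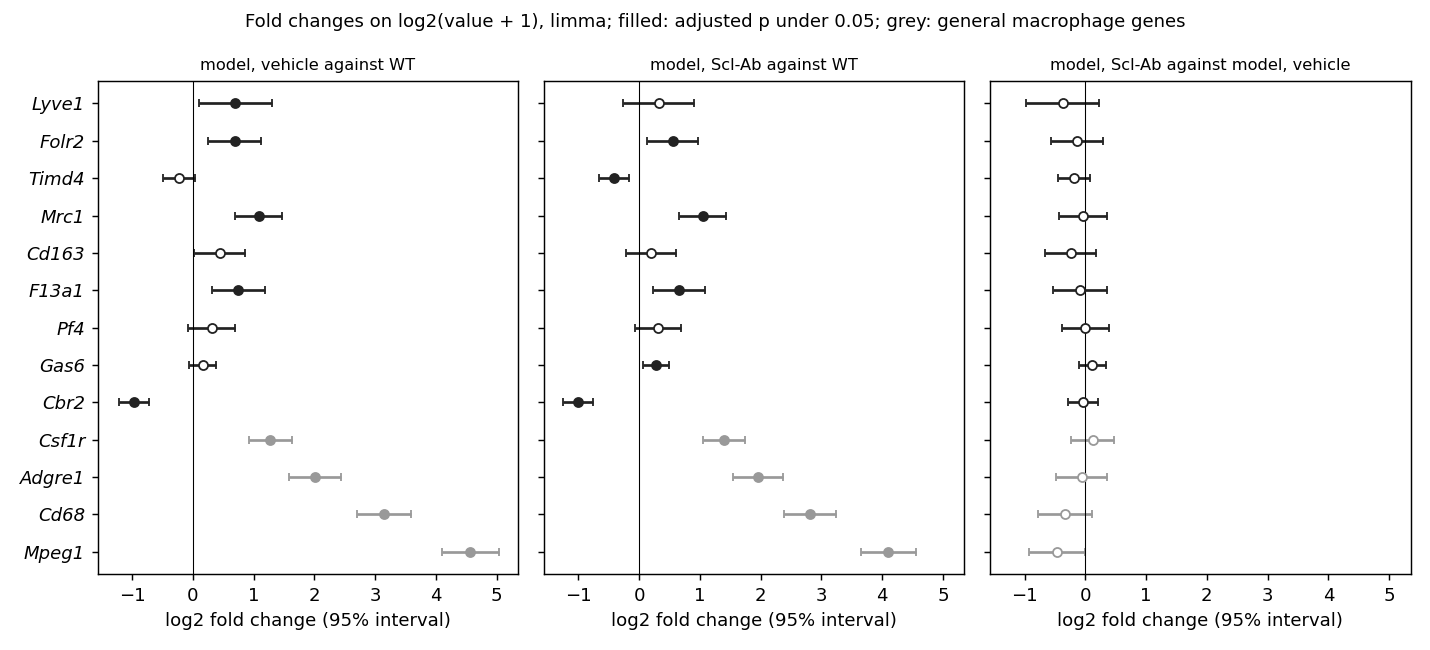
Log2 fold changes with 95% intervals (limma, log2(value + 1)) of the 9 markers in black and 4 general macrophage genes in grey, for the 3 comparisons; filled points have an adjusted p under 0.05. In the comparison of Scl-Ab with vehicle the intervals of all 9 markers include 0.

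Against the same WT libraries, the Scl-Ab-treated model had 4 of 9 markers higher (Mrc1, F13a1, Folr2 and Gas6) and 2 lower (Cbr2 and Timd4), where 19.8% of all tested genes were called higher and 30.5% lower. Lyve1, Cd163 and Pf4 were not called (limma adjusted p = 0.358, 0.42 and 0.161). Lyve1 was called with vehicle and not with Scl-Ab, and Gas6 and Timd4 with Scl-Ab and not with vehicle. The direct comparison of both model groups, which tests such differences, called none of the 3 (limma adjusted p = 0.458, 0.54 and 0.377).

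The lowest Lyve1 values with Scl-Ab came from 4 libraries. Replicates 16 to 19 read 9.00, 7.38, 6.04 and 3.96, and replicates 10 to 15 read 40.1, 18.6, 12.4, 14.5, 18.6 and 16.8. The shift was not limited to Lyve1. The same 4 libraries held the 4 lowest values of their group for Mrc1 (8.71 to 11.2), Folr2 (9.56 to 13.4), F13a1 (11.99 to 15.5), Pf4 (17.6 to 25.5) and Cd163 (2.39 to 3.94), and the 4 lowest lymphatic (1.55 to 1.67), endothelial (3.49 to 3.99) and fibroblast (6.24 to 7.18) indices. The 4 lowest values of Timd4, Gas6 and Cbr2 were not all in these libraries. Replicates 16, 18 and 19 held the highest Cbr2 values of the group (218, 263 and 236). They also held its highest contractile indices (8.845, 8.989 and 8.874). Replicate 17 did not, at 182 for Cbr2 and 8.398 for that index. Scl-Ab replicates 16 to 19 also held the 4 highest clock indices of their group (3.55 to 3.96). That index is the mean log2(value + 1) of Dbp, Per3, Hlf and Tef less that of Arntl, Npas2 and Clock. In WT it was -0.52 to 0.378 in replicates 20 to 22 and 1.976 to 4.395 in replicates 23 to 29. The meaning of the library numbers beyond the group is not given in the labels.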

How the data were processed

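Stranded mRNA libraries were sequenced, with minima of 80 ng of RNA and an integrity number of 7, per the labels' protocols. The authors deposited 1 FPKM-like value for each of 51456 symbols per library, under the unit name FPKQ, per the file headers, which do not define it. From the numbers themselves, the values were taken as scaled by gene length and to a common upper quantile: their 85th percentile was 6.99 to 7.30 in every library. Of the low values, 76.8 to 80.5% came within 0.05 of a whole number of fragments. GRCm38 and DESeq2 1.10.1 are named, with no role, per the submitters' processing notes, and the aligner is not given in the sources used here.

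Groups came from the labels. Replicate numbers are not shared between groups, so no pairing was used. No 2 libraries of a group were copies (smallest root mean square log2 difference 0.149). Where nothing says that libraries came from separate mice, p-values measure only the spread between libraries.

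The log2(value + 1) of the 13510 genes that reached 1 in 9 or more libraries entered 1 limma fit of all 29 libraries (limma 3.58.1, trend and robust, under R 4.3.3). Genes were called at a Benjamini-Hochberg adjusted p under 0.05. All 9 markers passed the filter, so the separate test set aside for low genes was not needed. Within-group relations used permutation tests with scipy 1.17.1 (100000 resamples), 108 relations in all. The fit was checked on simulated data with known changes. Gene coordinates are from GENCODE M21, on GRCm38.

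The markers and the 14 gene lists were chosen with earlier results of these data known. The rule for named genes took the 9 markers, in each other list the called gene with the smallest p and the 2 largest changes, the nearest genes of each marker by correlation, and Apoe. Some of these are left out of the text for length. Partners, regulators and other list genes beyond that rule were picked for their role next to a marker after their values were seen. Alternatives were another pseudocount, no filter, 2 other scalings, 2 groups only, the Wilcoxon test, tissue and clock indices as covariates, and each library left out. The lymphatic covariate and the fits without 2 model or 2 WT libraries were added after the data were seen. For the within-group relations, macrophage, adipocyte and contractile indices were planned, and the lymphatic index was added to them. No relation with the adipocyte index passed after adjustment.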

Additional observations from a re-analysis of the deposited data

Results flagged for a closer look

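In 5 of the 27 sets of values (9 markers in 3 groups), 1 library lay far from the rest of its group. Among independent sets of normally distributed values, about 1 in 20 would be picked out. These sets are not independent, since several markers vary together across libraries, and all 5 flags lay at the high end. The rate for these data was not determined. Lyve1 was 40.1 in Scl-Ab replicate 10, and the next library was at 18.6. Cd163 was 13.3 in that same library, and the next was at 6.26. Cd163 was 10.6 in vehicle replicate 1 (next 6.58) and Mrc1 was 27.7 there (next 17.7). Cd163 was 8.21 in WT replicate 23 (next 4.69). Vehicle replicate 1 also had the lowest contractile index of its group (7.60) and the highest adipocyte index (8.32). Without vehicle replicate 1 and Scl-Ab replicate 10, 4 of 9 markers were called between the vehicle-treated model and WT (Lyve1 was not), 0 between Scl-Ab and vehicle, and 6 between Scl-Ab and WT. What sets these libraries apart was not tested.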

How the results depend on the processing

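With vehicle against WT, 5 of 9 markers were called as reported. The count fell to 2 (Mrc1 and Cbr2) with the contractile index as a covariate and to 2 (the same genes) with the lymphatic index. With Scl-Ab against WT, 6 were called, against 1 (Cbr2) with the contractile index, 2 (Cbr2 and Timd4) with the lymphatic index and 3 (Cbr2, Mrc1 and Timd4) without WT 20 and 21, which held the lowest lymphatic indices. The indices differ between the groups, so a covariate also takes up part of the group difference. With the lymphatic index, Lyve1 with vehicle turned to log2 -0.26 and Folr2 with Scl-Ab to log2 -0.10, both not called. With Scl-Ab against vehicle, 0 markers were called in all 30 alternatives.

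Leaving out 1 library gave 4 to 6 calls in each comparison with WT. Cbr2 was called in every alternative in both, and Mrc1 in all 30 with vehicle. Cd163 with vehicle was also called after trimmed mean scaling (limma adjusted p = 0.046) and in the fit of 2 groups (limma adjusted p = 0.0363). In that fit of Scl-Ab and vehicle, Timd4 missed the filter. Over all genes, 42.2% of the calls with vehicle against WT were higher as deposited and 54% after trimmed mean scaling. For Scl-Ab against WT these shares were 39.4 and 54.5%, and for Scl-Ab against vehicle 35.4% as deposited and 65.4% with equal totals. The 1005 calls of the last comparison were 367 with equal totals, 304 in the fit of 2 groups, 447 with no filter, 412 by the Wilcoxon test, 1791, 1618 and 1573 with the contractile, lymphatic and adipocyte indices, and 3 with the clock index. With vehicle against WT the 7255 calls were 4123 with the lymphatic index, and with Scl-Ab against WT the 6808 were 3792. The cause was not tested. No paired analysis was possible because the replicate numbers are not shared between the groups.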
